A study of Mus musculus with 18 samples.

Results

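Genes that mark B lymphocytes were followed through RNA of purified mouse CD4+ T cells: Cd79a, Cd79b, Ms4a1, Cd22, Blk, Pax5, Ebf1, Fcer2a and Cr2. They are 9 of the 12393 genes that the Affymetrix Mouse Genome 430A 2.0 array covers with at least 1 probe set annotated to that gene alone. Together they have 14 such probe sets, and each gene is represented by its brightest one, taken as the mean of 18 arrays. The arrays form 6 groups of 3, which the study's design calls independent biological replicates. The knockout cells came from ERRa-/- mice, which lack the orphan nuclear receptor encoded by Esrra, and the other cells from wild-type (WT) mice, all aged 6 to 8 weeks. Wild-type cells were stimulated for 12 h with 10 µg of antibodies to CD3 and CD28 in the presence of 20 µM XCT790, an inverse agonist of ERRα, or of 20 µM compound A, an ERRα inhibitor known here only by that name. Knockout and wild-type cells were also stimulated without an inhibitor for 12 h, and resting knockout and resting wild-type cells were taken straight from the mouse. No group was cultured for 12 h without antibody, so time in culture and stimulation cannot be told apart. The stimulation entry of the 6 inhibitor arrays reads unstimulated, whereas the protocol places both inhibitors in the stimulated culture; each inhibitor was therefore set against stimulated and against resting wild-type cells.

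B cells recognise antigen through a surface immunoglobulin that signals through the paired chains Igα and Igβ, the products of Cd79a and Cd79b. Ms4a1 encodes CD20, a surface protein of mature B cells, Cd22 an inhibitory co-receptor that binds sialic acid, and Blk a Src-family kinase of the B lineage. Pax5 and Ebf1 encode transcription factors that commit cells to the B lineage and keep them there. Fcer2a encodes CD23, the low-affinity receptor for IgE, and Cr2 encodes CD21, a complement receptor of the B cell co-receptor complex. CD4+ T cells purified by negative selection, in which other cells are labelled and removed, can retain a few such cells; the labels give a purity above 95%.

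The T cell label held on every array. All 12 measured T cell identity genes read at least log2 4 on all 18 arrays, and their array means ran from 11.24 to 12.47. Log2 4 serves throughout as the floor under which a level is not read, and 48.6% of probe sets lay at or above it. Esrra read 4.34 to 4.65 in resting knockout cells, against 5.25 to 5.51 in resting wild-type cells (log2 difference −0.87, adjusted p = 0.000216 in limma), and 4.30 to 4.71 in stimulated knockout cells, against 5.28 to 5.47 in stimulated wild-type cells (−0.92, adjusted p = 0.000331). Whether its probe set lies in the deleted part is not given in the sources used here. The 5′ probe set of dap, a bacterial RNA added as a control, read 7.45 to 8.51 on the knockout and inhibitor arrays, against 3.99 to 6.38 on the untreated wild-type arrays. Knockout or inhibitor and this split cannot be told apart in any comparison with untreated wild-type cells. Every array holds the same set of values, so each level is relative to the other genes, and the 3 arrays per group limit the precision.

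The 9 genes fell into 3 patterns over the groups. A first pattern was that of 5 genes: Cd79a, Cd79b, Ms4a1, Cd22 and Blk, were high in resting cells and lower in every 12 h culture group. Fcer2a was, in most arrays, higher in culture than at rest. Pax5 and Ebf1 stayed under log2 4 on all 18 arrays, and Cr2 passed it on 1. The mean of the 9 levels was 4.41 to 4.72 in XCT790 arrays, 4.74 to 5.07 in compound A arrays, 4.24 to 4.57 in stimulated knockout arrays, 4.56 to 4.87 in stimulated wild-type arrays, 5.58 to 5.69 in resting knockout arrays and 6.10 to 7.31 in resting wild-type arrays. Resting wild-type arrays stood above resting knockout arrays, and both stood above all arrays from culture. In such bulk RNA, fewer B cells and less of this RNA per cell cannot be told apart.

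**Figure D1:**
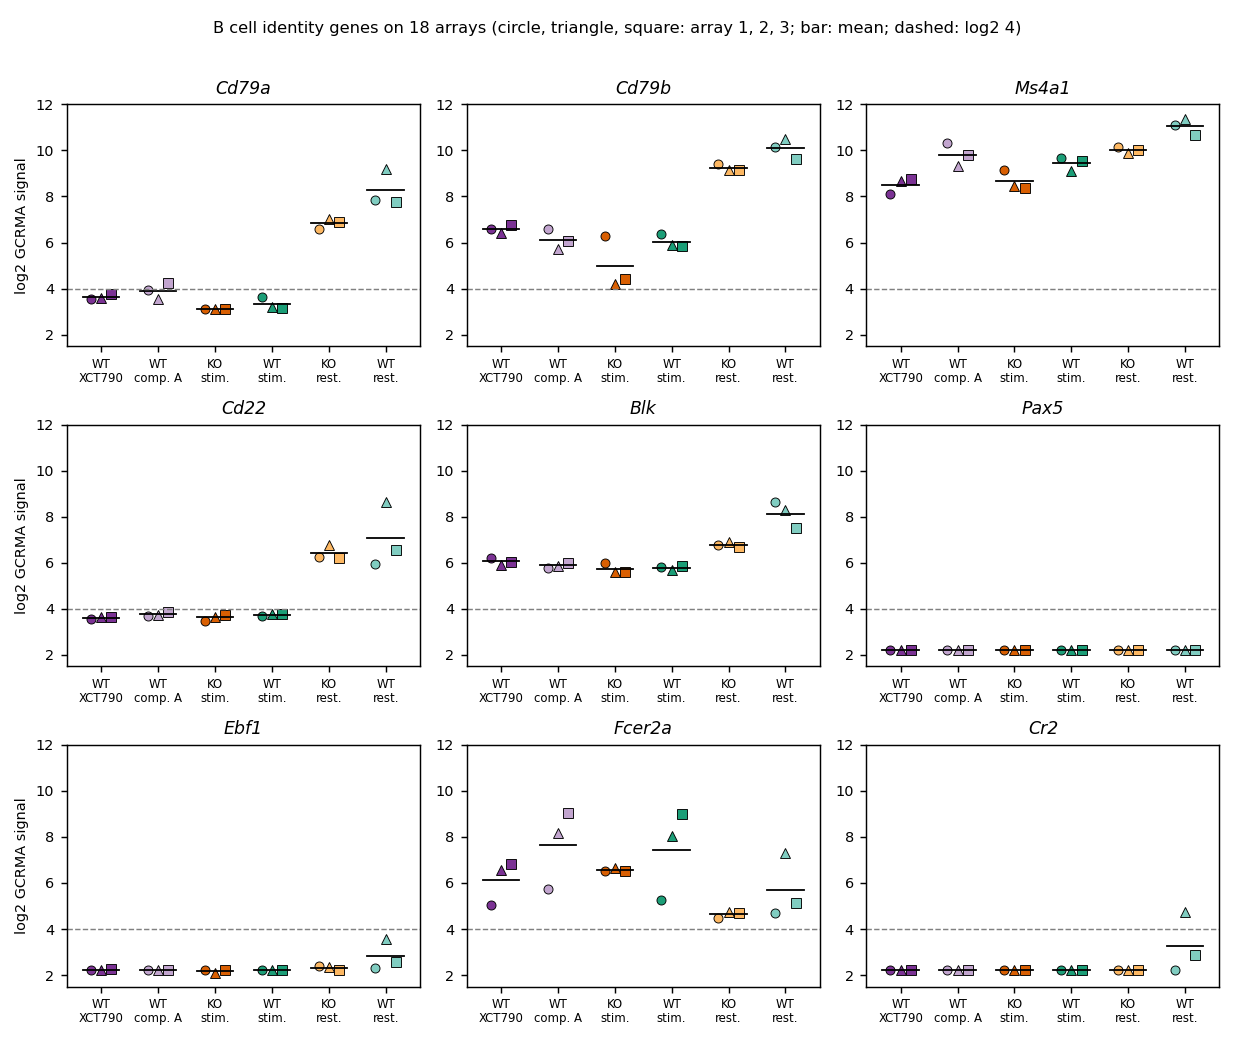
Log2 signal (y axis) of the 9 B cell identity genes on each array, by group (x axis), with circle, triangle and square for arrays 1, 2 and 3, a bar for the mean and a dashed line at log2 4. Cd79a, Cd79b, Ms4a1, Cd22 and Blk are highest in the resting groups, Fcer2a reaches 9.06 in culture, and Pax5 lies near 2.2 on all 18 arrays.

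Both signalling chains of the B cell receptor fell steeply with stimulation in wild-type cells. Cd79a (probe set 1418830_at; chromosome 7, 24897497 to 24901858, GRCm38) read 3.64, 3.18 and 3.16 in stimulated wild-type cells, against 7.84, 9.18 and 7.77 in resting wild-type cells. All stimulated arrays were under log2 4 and far under the resting ones. The difference was −4.94 ± 0.29 (log2, SE), at least 19.2-fold lower when the stimulated arrays are set to log2 4 (limma adjusted p = 1.42e-09). Cd79b (1417640_at; chromosome 11, 106311341 to 106314562) read 6.36, 5.88 and 5.87 in stimulated wild-type cells, against 10.13, 10.50 and 9.63 in resting wild-type cells. Its groups were also far apart, but its stimulated arrays stayed well above log2 4, and the fall was 16.6-fold (−4.05 ± 0.41, adjusted p = 4.68e-07).

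CD20 RNA fell less than that of the receptor chains. Ms4a1 (1423226_at; chromosome 19, 11249679 to 11266149) read 9.68, 9.12 and 9.56 in stimulated wild-type cells, against 11.12, 11.37 and 10.68 in resting wild-type cells. The groups did not overlap, and the fall was 3.04-fold (−1.61 ± 0.27, limma adjusted p = 7.85e-05). Its second probe set, 1450912_at, had 6.69, 6.41 and 6.77 in stimulated wild-type cells, against 7.90, 8.48 and 7.54 in resting wild-type cells, the same order of groups. The co-receptor gene Cd22 (1419768_at; chromosome 7, 30865404 to 30880342) read 3.69, 3.76 and 3.77 in stimulated wild-type cells, against 5.95, 8.66 and 6.57 in resting wild-type cells. Stimulated arrays lay tightly together under log2 4, while resting array 2 stood well above the other two resting arrays. The fall was at least 8.34-fold (−3.32 ± 0.45, limma adjusted p = 9.55e-06), and −2.52 without that array (adjusted p = 3.34e-08). The second Cd22 probe set, 1419769_at, read 2.22 to 2.32 on all 18 arrays, all under log2 4. Over the alternatives named below, the smallest fall of Cd22 was −1.67. The kinase gene Blk (1422775_at; chromosome 14, 63372837 to 63417187) read 5.81, 5.68 and 5.87 in stimulated wild-type cells, against 8.63, 8.29 and 7.49 in resting wild-type cells. It fell 5.09-fold with no overlap (−2.35 ± 0.21, limma adjusted p = 1.23e-07).

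Of the 6 genes that reached log2 4 on at least 3 arrays and could be tested, 5 fell with stimulation in wild-type cells and 0 rose; of all 6873 tested genes, 38.4% fell and 37% rose. The arrays of the same 5 genes lay wholly under the resting arrays, as did those of 41.9% of all tested genes. Cd79a and Cd22 entered the test only through their resting arrays, so these counts describe the genes and are no test of the group. The median difference over the 6 genes was −2.83, or −2.70 with levels under log2 4 set to it, beside −0.01 over all tested genes. Macrophage genes moved the same way: 10 of 11 tested fell, and their array means were 2.37 to 2.60 in stimulated wild-type cells, against 7.39 to 8.31 in resting wild-type cells. Of the 12 measured, 11 lay under log2 4 on all 3 stimulated wild-type arrays. Most macrophage genes thus entered the test through resting arrays, and their count is no test either. T cell identity genes moved too, with array means of 11.73 to 11.85 in stimulated wild-type cells, against 12.41 to 12.47 in resting wild-type cells. Cd3d, Cd3e, Cd3g, Cd247, Cd4, Lat, Thy1 and Bcl11b passed as lower, and Zap70 as higher. Cd5, Cd2 and Cd28 did not pass. The largest of these falls was 5.07-fold for Thy1. The part of macrophage and T cell genes in the result was not tested.

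Since these genes moved together, the region from 250 bases before to 50 after the start site was read for letters bound by B lineage regulators, on both strands. RefSeq's promoter table for GRCm38.p6 held 6 of the 9 genes; Cd79b, Ms4a1 and Blk were not matched. The promoters of Cd79a and Cd22, whose RNA fell under log2 4 in stimulated cells of both genotypes, and 1 of the 3 listed for Fcer2a, whose RNA did not, are shown, with matches in capitals. The letters searched were TCCC and GGGA with 2 bases between for EBF, GCGTGAC for the Pax5 core, ATGCAAAT for the octamer, CAGGTG for E-box proteins, GAGGAA for PU.1, TTC and GAA with 4 bases between for STAT6, and GGGA and TTTCC with 1 base between for NF-kB.
Cd79a: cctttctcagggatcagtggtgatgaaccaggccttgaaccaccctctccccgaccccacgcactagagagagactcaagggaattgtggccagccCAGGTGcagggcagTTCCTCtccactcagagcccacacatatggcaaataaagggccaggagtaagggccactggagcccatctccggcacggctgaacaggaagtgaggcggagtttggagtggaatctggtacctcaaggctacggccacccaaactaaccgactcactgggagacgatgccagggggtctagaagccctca
Cd22: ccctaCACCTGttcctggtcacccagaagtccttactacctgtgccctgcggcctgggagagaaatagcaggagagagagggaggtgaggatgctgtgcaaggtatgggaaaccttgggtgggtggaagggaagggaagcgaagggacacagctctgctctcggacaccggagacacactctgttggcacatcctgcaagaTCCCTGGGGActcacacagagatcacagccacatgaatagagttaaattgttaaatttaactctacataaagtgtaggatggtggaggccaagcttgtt
Fcer2a: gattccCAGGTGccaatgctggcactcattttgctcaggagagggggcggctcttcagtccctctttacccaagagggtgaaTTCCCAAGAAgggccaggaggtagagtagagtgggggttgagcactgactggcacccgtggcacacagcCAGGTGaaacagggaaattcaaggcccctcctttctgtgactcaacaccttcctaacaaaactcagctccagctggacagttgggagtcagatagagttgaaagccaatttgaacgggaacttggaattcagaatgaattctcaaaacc
The Cd79a window (chr7:24897247-24897546, plus strand) holds an E-box at −154 to −149 from the start and PU.1 letters on the other strand at −140 to −135. The Cd22 window (chr7:30878979-30879278, minus strand) holds an E-box on the other strand at −245 to −240 and EBF letters at −49 to −40. The Fcer2a window (chr8:3690812-3691111, minus strand) holds E-boxes at −244 to −239 and −99 to −94 and STAT6 letters at −168 to −159; the other 2 Fcer2a windows hold none of the 7. Of the windows not shown, that of Cr2 holds an E-box on the other strand at −88 to −83. The second Ebf1 window holds PU.1 letters on the other strand at −130 to −125. The first Ebf1 window and the Pax5 window hold no match. No 2 matches overlap. Among 32851 promoters of the same length, 0.904% held the EBF letters, 20.2% the E-box, 28.3% the PU.1 letters, 6.95% the STAT6 letters, 2.09% the Pax5 core, 1.74% the octamer and 0.411% the NF-kB letters. A match is a run of letters and not a shown binding site. Only these exact letters were searched, so a window without a match can still hold a site with other letters.

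The same 5 genes fell with stimulation in knockout cells. Cd79a read 3.11 on all 3 stimulated knockout arrays, against 6.59, 7.02 and 6.90 in resting knockout cells, at least 7.15-fold lower (−3.73 ± 0.29, limma adjusted p = 3.18e-08). Cd79b read 6.28, 4.20 and 4.42 in stimulated knockout cells, against 9.39, 9.13 and 9.13 in resting knockout cells. Stimulated array 1 stood well above arrays 2 and 3, though still far under every resting array. The fall of Cd79b was 19.1-fold (−4.25 ± 0.41, adjusted p = 3.27e-07) and −4.91 without stimulated knockout array 1. Ms4a1 read 9.13, 8.46 and 8.39 in stimulated knockout cells, against 10.14, 9.91 and 10.03 in resting knockout cells, 2.58-fold lower (−1.37 ± 0.27, adjusted p = 0.000357). Its groups did not overlap, and array 1 was again the highest of the stimulated ones. Cd22 read 3.49, 3.65 and 3.74 in stimulated knockout cells, against 6.25, 6.78 and 6.19 in resting knockout cells, at least 5.3-fold lower (−2.78 ± 0.45, adjusted p = 6.16e-05). Blk read 6.00, 5.58 and 5.58 in stimulated knockout cells, against 6.75, 6.88 and 6.69 in resting knockout cells, 2.07-fold lower (−1.05 ± 0.21, adjusted p = 0.000432). No member's groups overlapped among these 5, as for 35% of all tested genes. Thus 5 of 6 tested members fell and 0 rose, where 35.7% of all tested genes fell and 37.7% rose. The members' median difference was −2.07, or −1.89 with levels under log2 4 set to it, beside 0.01 over all genes. As Cd79a and Cd22 entered the test through resting arrays, these counts again describe the genes and are no test of the group.

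The stimulation response was compared between genotypes by the interaction, the response in knockout cells minus that in wild-type cells. It passed for 0 of 6 members in limma and for 0.902% of all tested genes in either direction. At an unadjusted p under 0.05 it held for 2 members, Cd79a and Blk, and for 17.5% of all tested genes. The interaction of Blk was 1.30 ± 0.30 on the log2 scale, a smaller difference in knockout cells than in wild-type cells that did not pass (95% interval 0.66 to 1.94, adjusted p = 0.0588). With the replicate number as a block it passed (limma adjusted p = 0.0434). Without resting wild-type array 3, where Blk was lowest of its group, this was 1.63 (adjusted p = 0.00189). That of Cd79a was 1.21 ± 0.41 (0.33 to 2.09, adjusted p = 0.158), with all its stimulated arrays under log2 4 in both genotypes. The intervals were −1.46 to 1.05 for Cd79b, −0.58 to 1.06 for Ms4a1, −0.82 to 1.91 for Cd22 and −2.67 to 3.07 for Fcer2a.

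**Figure D2:**
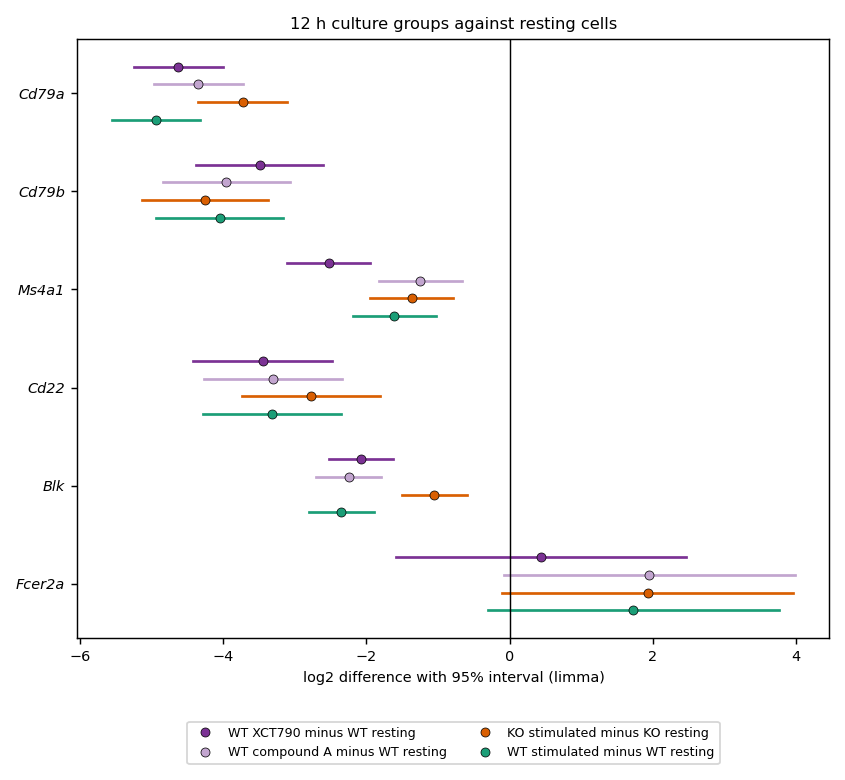
Log2 differences of the 6 tested members (y axis) between each 12 h group and resting cells of the same genotype, with 95% intervals from limma. Cd79a, Cd79b, Ms4a1, Cd22 and Blk lie left of 0 in all 4 groups, and the intervals of Fcer2a cross 0 in all 4.

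Fcer2a ran the other way, with a wide spread. Its probe set (1422122_at; chromosome 8, 3680280 to 3694174) read 5.28, 8.05 and 8.98 in stimulated wild-type cells, against 4.70, 7.30 and 5.12 in resting wild-type cells. Stimulated array 1 lay among the resting arrays and resting array 2 near the stimulated ones, so the groups overlapped. The difference was 1.73 ± 0.95 (3.32-fold higher, limma adjusted p = 0.112), 2.81 without stimulated array 1 (adjusted p = 0.011) and 2.53 without resting array 2 (adjusted p = 0.0336). In stimulated knockout cells Fcer2a read 6.52, 6.65 and 6.52, against 4.48, 4.75 and 4.68 in resting knockout cells. All 3 stimulated knockout arrays were higher by nearly the same amount, 3.81-fold on average (1.93 ± 0.95). The adjusted p was 0.0801 with the spread shared over all groups, 0.0239 with the replicate number as a block and 7.51e-05 in a fit on these 2 groups alone. Leaving out array 1 of another group also took it past the threshold, at 0.0402 without stimulated wild-type array 1 and 0.0497 without compound A array 1. XCT790 arrays read 5.06, 6.55 and 6.83 and compound A arrays 5.73, 8.19 and 9.06. In the XCT790, compound A and stimulated wild-type groups array 1 was the lowest by at least 1.49, while the 3 stimulated knockout arrays lay within 0.13. The second Fcer2a probe set, 1451713_a_at, read 2.17 on 15 arrays, 2.42 and 2.71 on compound A arrays 2 and 3, and 4.53 on stimulated wild-type array 3.

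The lineage regulators were not read. Pax5 (1421765_at; chromosome 4, 44524748 to 44710694) read 2.19 to 2.22 on all 18 arrays and could not be tested. Ebf1 (1448293_at; chromosome 11, 44618100 to 45008096) read 2.31, 3.55 and 2.58 in resting wild-type cells and 2.08 to 2.41 on the other 15 arrays, all under log2 4. Its probe set 1416301_a_at passed log2 4 on 1 array, resting wild-type array 2, at 4.24. The complement receptor gene Cr2 (1425289_a_at; chromosome 1, 195136811 to 195176880) read 2.21, 4.74 and 2.85 in resting wild-type cells and 2.20 to 2.21 on the other 15 arrays. Levels of different probe sets are not comparable.

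Resting wild-type array 2 stood high for most members. It was the highest of its group for 6 of the 7 members that reached log2 4 there (85.7%), against 33.3% of all tested genes; Blk was highest on array 1. The same array was highest for all 6 such MHC class II genes, 7 of 10 B cell transcription factors and 6 of 11 other B cell surface genes. It was also highest for 4 of 6 CD8 T cell and NK cell genes, 2 of 5 immunoglobulin genes, 2 of 12 T cell identity genes, 1 of 11 macrophage genes and 1 of 7 B cell receptor signalling genes, 6 of which were highest on array 1. Fcrl1, an Fc receptor-like gene of B cells, read 3.22, 5.60 and 2.88 in resting wild-type cells. Follicular dendritic and stromal cells share Cr2 and Fcer2a with B cells. Of their 11 measured genes, 10, Cxcl13 included, were under log2 4 on all 18 arrays and so were not read. The remaining gene, Mfge8, was highest of the resting wild-type group on array 1. Its mean was 6.29 in resting wild-type cells, 5.68 in resting knockout cells (limma adjusted p = 0.0497) and 4.98 in stimulated wild-type cells. The part of these cells in the levels on array 2 was not tested. For the comparisons below that use the resting wild-type group, values without array 2 are given beside those that change most.

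At rest, 3 members were lower in knockout cells than in wild-type cells. Cd79a read 6.59, 7.02 and 6.90 in resting knockout cells, against 7.84, 9.18 and 7.77 in resting wild-type cells, 2.68-fold lower (−1.42 ± 0.29, limma adjusted p = 0.0053). Ms4a1 read 10.14, 9.91 and 10.03 in resting knockout cells, against 11.12, 11.37 and 10.68 in resting wild-type cells, 2.04-fold lower (−1.03 ± 0.27, adjusted p = 0.0195). Blk read 6.75, 6.88 and 6.69 in resting knockout cells, against 8.63, 8.29 and 7.49 in resting wild-type cells, 2.58-fold lower (−1.36 ± 0.21, adjusted p = 0.000836). In all 3 genes the knockout arrays lay close together and wholly under the wild-type arrays. Cd79b was also lower on every knockout array without passing (−0.87 ± 0.41, adjusted p = 0.149) and passed when stimulated knockout array 1 was left out of the fit (adjusted p = 0.0204). Cd22 (−0.66 ± 0.45, adjusted p = 0.31) and Fcer2a (−1.07 ± 0.95, adjusted p = 0.431) overlapped between genotypes.

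Over all tested genes, 12.3% were lower in resting knockout cells against 6.74% that were higher, and 27.9% had no overlap in that direction. Of the 6 members, 3 were lower, 0 were higher and 4 had no overlap. The members' median was −1.05, beside −0.11 over all genes. Of the passing genes 35.4% were higher in knockout cells, or 46% with the arrays shifted to a common median, where the same 3 members passed. Without resting wild-type array 2, Cd79a was −0.97 (adjusted p = 0.00611) and Blk −1.29 (adjusted p = 0.00568), but Ms4a1 at −0.87 no longer passed (adjusted p = 0.0796) and Cd22 turned to 0.14. Fcer2a became −0.27 without that array. In a fit on the 2 groups alone 0 members passed in limma, with adjusted p of 0.109 for Cd79a, 0.0543 for Ms4a1 and 0.0693 for Blk. Genes of other cell types moved with this comparison. All 6 tested erythroid genes were higher in resting knockout cells, with array means of 6.94 to 8.56 there, against 3.22 to 5.54 in resting wild-type cells, and 6 of 8 neutrophil genes were higher, with 6.22 to 8.58 in resting knockout cells, against 3.71 to 5.22 in resting wild-type cells. All 8 measured erythroid genes lay under log2 4 on every array from culture, so those tested entered through resting arrays. The neutrophil genes Elane (mean 5.68, against 2.58 in resting wild-type cells) and Camp (5.23, against 2.4) entered through resting knockout arrays alone. So did the erythroid gene Epor (5.59, against 2.73). These counts therefore describe the genes and are no test of the lists. Macrophage gene means overlapped, at 7.93 to 9.67 in resting knockout cells, against 7.39 to 8.31 in resting wild-type cells, and 0 of 11 tested macrophage genes passed in limma. Their part in the lower B cell levels was not tested.

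**Figure D3:**
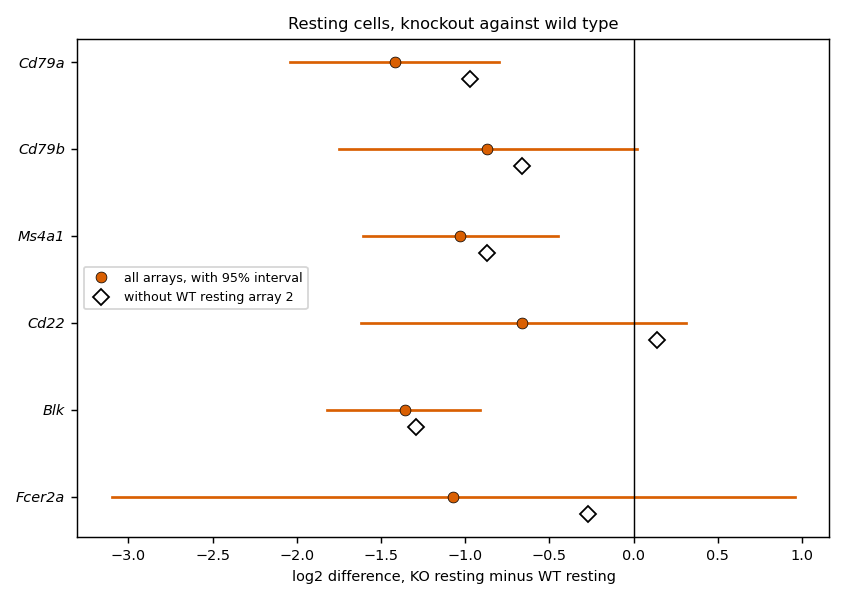
Log2 difference of the 6 tested members, resting knockout minus resting wild-type cells: circles with 95% intervals for all arrays, diamonds without resting wild-type array 2. Cd79a, Ms4a1 and Blk lie left of 0 under both, and Cd22 crosses to 0.14 without that array.

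After stimulation, no member passed between genotypes. In limma 0 of 6 members passed, where 0.597% of all tested genes were lower and 1.59% higher. At an unadjusted p under 0.05, 2 members were lower, Cd79b and Ms4a1, where 15.5% of all tested genes differed in either direction. Cd79b read 6.28, 4.20 and 4.42 in stimulated knockout cells, against 6.36, 5.88 and 5.87 in stimulated wild-type cells. Knockout arrays 2 and 3 were under all wild-type arrays, whereas knockout array 1 was level with them. The difference was −1.07 ± 0.41 (adjusted p = 0.227), and −1.73 without knockout array 1 (adjusted p = 0.00327). Ms4a1 differed by −0.79 ± 0.27 (adjusted p = 0.171) and Blk by −0.06 ± 0.21 (adjusted p = 0.928, 95% interval −0.52 to 0.39). Stimulated knockout array 1 was the highest of its group for all 7 B cell receptor signalling genes that reached log2 4 there, all 6 MHC class II genes and all 5 neutrophil genes, against 34.3% of all tested genes. The same held for 3 of 4 members, 7 of 10 other B cell surface genes, 6 of 9 B cell transcription factors and 4 of 5 immunoglobulin genes. It held for only 2 of 12 T cell identity genes and 0 of 6 CD8 T cell and NK cell genes. The neutrophil list averaged 5.04 on that array and at most 2.82 on the other two, and Syk, a kinase of the receptor pathway, read 5.99 there against 3.20 and 2.99. Their part in the Cd79b level was not tested.

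The 2 inhibitors, both at 20 µM for 12 h, differed for 1 member, Ms4a1. It read 8.12, 8.66 and 8.78 with XCT790, against 10.31, 9.31 and 9.80 with compound A. No XCT790 array reached the lowest compound A array, and the level was 2.43-fold lower with XCT790 (−1.28 ± 0.27, 95% interval −1.86 to −0.70, limma adjusted p = 0.00111). Between the compounds, 1 of 6 members was lower and 0 higher, where 27.8% of all tested genes were lower and 24.8% higher, a share of members below the background. The intervals for XCT790 minus compound A were −0.90 to 0.34 for Cd79a, −0.42 to 1.35 for Cd79b, −1.11 to 0.82 for Cd22, −0.28 to 0.62 for Blk and −3.55 to 0.52 for Fcer2a. T cell identity genes moved with the comparison: 9 of 12 were lower with XCT790, and their array means were 11.24 to 11.36 with XCT790, against 11.91 to 12.00 with compound A. The beta-actin control read 13.74 to 13.91 at its 5′ probe set with XCT790, against 14.43 to 14.62 with compound A, and 14.54 to 14.60 at its 3′ probe set with XCT790, against 14.95 to 15.04 with compound A. Among other B cell surface genes, Tnfrsf13b (2.03-fold), Cd40 (at least 6.07-fold) and Cd37 (1.62-fold) were lower with XCT790 than with compound A. Cd83 was higher (1.69-fold). The part of the T cell genes, the actin control and these genes in the Ms4a1 difference was not tested. Without compound A array 1, Fcer2a was −2.48 between the compounds and passed (limma adjusted p = 0.041). With 1 pair of compounds, p-values were adjusted over genes.

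Set against stimulated wild-type cells, XCT790 again moved Ms4a1 and compound A moved no member past the threshold. Ms4a1 read 8.12, 8.66 and 8.78 with XCT790, against 9.68, 9.12 and 9.56 in stimulated wild-type cells, 1.9-fold lower with no overlap (−0.93 ± 0.27, limma adjusted p = 0.00746). This was 1 of 6 members, where 36.9% of all tested genes were lower and 29.1% higher. Its second probe set read 5.33, 6.11 and 6.27 with XCT790, against 6.69, 6.41 and 6.77 in stimulated wild-type cells. Cd79b read 6.59, 6.43 and 6.76 with XCT790, against 6.36, 5.88 and 5.87 in stimulated wild-type cells, slightly higher on every array (0.56 ± 0.41, adjusted p = 0.25), and passed without stimulated knockout array 1 (adjusted p = 0.0457). Fcer2a differed by −1.29 ± 0.95 (adjusted p = 0.248) with XCT790, and by −2.37 without stimulated wild-type array 1 (adjusted p = 0.0314). For compound A, 0 of 6 members passed in limma, where 18.7% of all tested genes were lower and 14.5% higher. At an unadjusted p under 0.05, 0 members differed with compound A, beside 43.2% of all tested genes. Its differences from stimulated wild-type cells ran from 0.01 for Cd22 to 0.58 for Cd79a (95% interval −0.04 to 1.20), which passed without resting wild-type array 2 (adjusted p = 0.0159). These comparisons share the stimulated wild-type arrays.

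**Figure D4:**
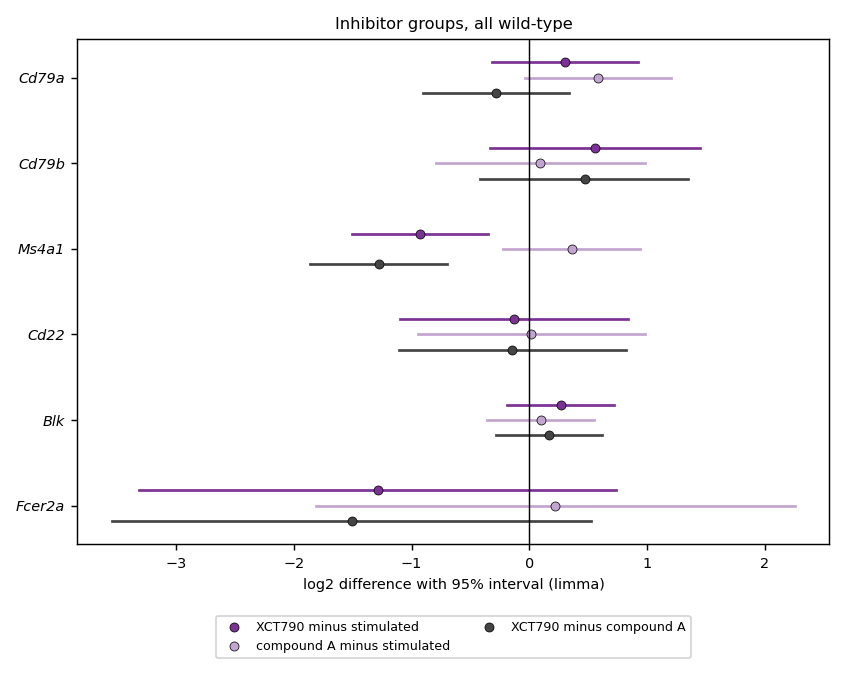
Log2 differences of the 6 tested members between the inhibitor groups and stimulated wild-type cells, and between the inhibitors, with 95% intervals from limma. Ms4a1 is left of 0 for XCT790 in both of its comparisons, and the intervals of the other members cross 0.

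Both inhibitor groups had the low levels of stimulated cells rather than those of resting cells. With XCT790, 5 of 6 members were lower than in resting wild-type cells and 0 higher, where 38.3% of all tested genes were lower and 33.6% higher. Cd79a was at least 19.2-fold lower (limma adjusted p = 2.83e-09), Cd79b 11.2-fold (2.66e-06 by the same test), Ms4a1 5.79-fold (9.02e-07), Cd22 at least 8.34-fold (7.4e-06) and Blk 4.23-fold (5.37e-07). With compound A the same 5 members were lower and 0 higher, where 37.1% of all tested genes were lower and 32.6% higher, with Cd79a 18.2-fold lower when arrays under log2 4 are set to it and Ms4a1 2.38-fold. Without resting wild-type array 2 the difference of Cd22 was −2.65 in place of −3.45 with XCT790 and −2.50 in place of −3.30 with compound A. Fcer2a differed by 0.44 ± 0.95 with XCT790 (limma adjusted p = 0.688), or by 1.24 without resting wild-type array 2 (adjusted p = 0.279). With compound A the difference of Fcer2a was 1.95 ± 0.95 (adjusted p = 0.0798). It passed without resting wild-type array 2 (2.75, adjusted p = 0.0249), without compound A array 1 (2.92, adjusted p = 0.0132) and without stimulated wild-type array 1 (adjusted p = 0.0401). These comparisons share the resting wild-type arrays. Cd79a and Cd22 entered the test through resting arrays, so the counts for both inhibitors describe the genes and are no test of the group.

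Other B cell genes were read from lists of the lineage, beside the 38.4% of all tested genes that fell and the 37% that rose with stimulation in wild-type cells. Of 11 tested surface genes, 8 fell and 2 rose with stimulation in wild-type cells. Cd72, a receptor for semaphorin, fell 18.9-fold (limma adjusted p = 1.55e-07) and the tetraspanin gene Cd37 4.62-fold (2.39e-10). Cd40 rose at least 11.8-fold (7.83e-09) and Cd83 2.66-fold (2.87e-06). Of 7 receptor signalling genes, 4 fell and 2 rose: Prkcb fell 3.42-fold (4.38e-09) and Swap70 rose 3.78-fold (1.13e-06). Of 10 transcription factors, 3 fell and 3 rose: Spib, an Ets factor of B cells, fell 8.13-fold (0.000183), while Irf8 rose 15.5-fold (4.75e-07) and Pou2f2, which encodes Oct-2, 4.72-fold (1.56e-06). Irf8, Cd83 and Cd40 are also made by other activated lymphoid cells. All 5 tested immunoglobulin genes fell, from 4.69-fold for Ighm (8.84e-07) to 72.7-fold for Igha (7.95e-05), and 5 of 6 MHC class II genes fell. Fcrla, Bcl11a and H2-Oa, counted among the falls, lay under log2 4 on every array from culture and so entered the test through resting arrays. Fcgr2b was under it on all stimulated wild-type arrays. These counts therefore describe the genes and are no test of the lists.

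Between genotypes at rest, the lists split, beside the 12.3% of all tested genes that were lower and the 6.74% that were higher. Of 11 tested surface genes, 5 were lower in resting knockout cells and 1 was higher: Cd72 was 2.39-fold lower (limma adjusted p = 0.038), Cd37 1.31-fold lower (0.0246), and Cd24a, which red cell precursors also carry, 3.01-fold higher (0.00831). No tested receptor signalling gene passed, with a median of −0.36 over 7. Of 10 transcription factors, 0 were lower and 1 was higher, Bcl11a, a zinc finger factor (3.32-fold, limma adjusted p = 0.0299), and Mef2c was 3.8-fold higher without passing (0.0702). Of 4 plasma cell genes, 0 were lower and 1 was higher, Xbp1, a factor of secretory cells (1.5-fold, 0.00473). None of the 5 immunoglobulin genes passed either, and their median was 0.22: Jchain, which joins secreted IgM and IgA, read 13.83, 14.16 and 14.19 in resting knockout cells, against 13.87, 13.92 and 13.74 in resting wild-type cells. Igha read 14.44, 14.91 and 14.86 in resting knockout cells, against 14.25, 13.89 and 13.90 in resting wild-type cells. Whether the lists differ from the members was not tested. Probes of immunoglobulin genes can share sequence with related genes. Of the MHC class II genes, 1 of 6 was lower, H2-Oa (1.91-fold, 0.0281).

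**Figure D5:**
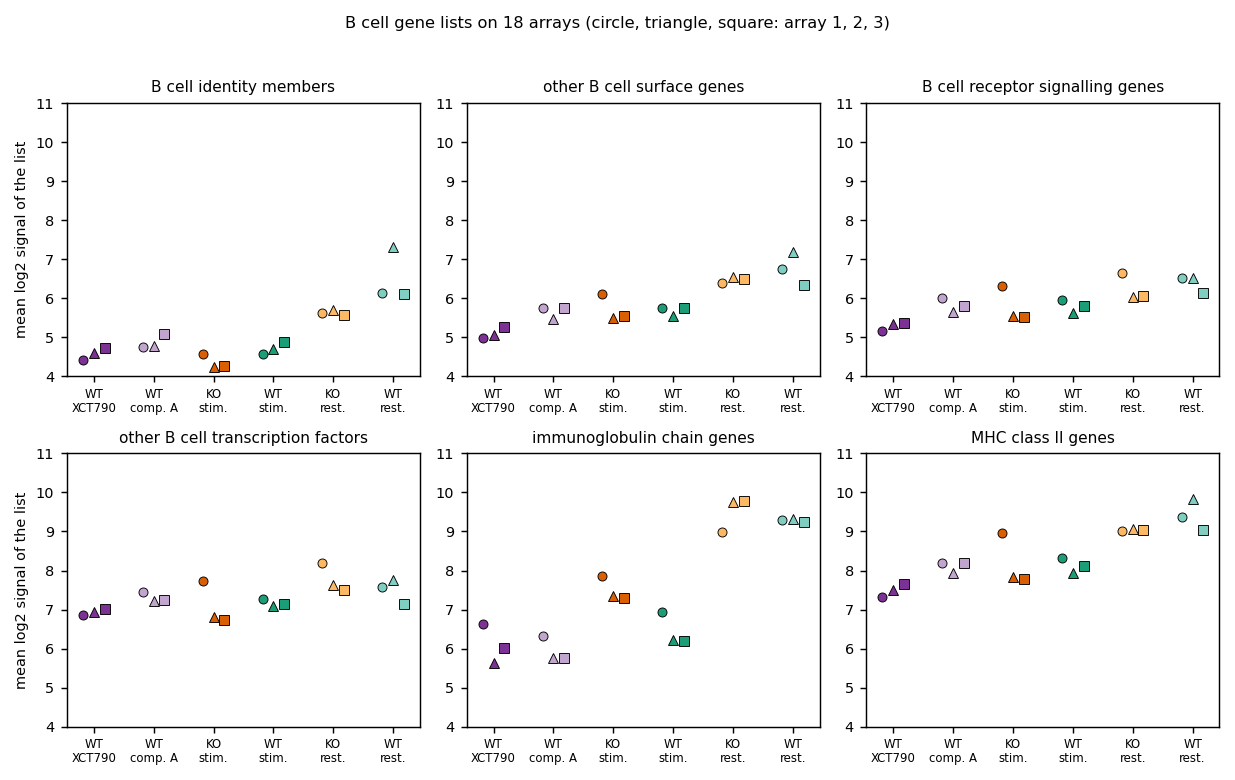
Mean log2 signal (y axis) of 6 B cell gene lists on each array, by group (x axis), with circle, triangle and square for arrays 1, 2 and 3. The identity genes and the MHC class II genes are highest on resting wild-type array 2, while the immunoglobulin genes reach 9.79 in resting knockout arrays and 9.32 in resting wild-type arrays.

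Members resembled each other to different degrees, which is given as a description over 18 arrays that share 6 groups. Pearson's r between levels was 0.97 for Cd79a with Cd22, 0.95 for Cd79a with Cd79b and 0.81 for Cd79b with Ms4a1, and −0.22 to −0.53 between Fcer2a and the other 5. With each group's mean removed, Cd79a and Cd22 had r = 0.84 and Cd79b and Ms4a1 0.77, while Cd79b and Cd22 had 0.12. Leaving out resting wild-type array 2, an alternative chosen after seeing the data, gave 0.21 for Cd79a with Cd22 and 0.75 for Cd79b with Ms4a1, so the first of these rests on that array. Outside the members, the genes closest to their mean level were Camta2 (r = 0.96), H2-Oa (0.952), Rab3d (0.945), Fcrla (0.935), Tsc22d4 (0.935), Ska2 (0.929), C2cd3 (0.92), Lasp1 (0.919), Dock2 (0.919) and Smarca2 (0.918). Of these, H2-Oa, which encodes a chain of the class II regulator H2-O, and the Fc receptor-like gene Fcrla are known from B cells. With group means removed the closest were Iqsec1 (0.896), Rab3d (0.844), Lrrfip2 (0.832), Dbr1 (0.818), Ighv14-2 (0.799), Eef1b2 (0.792), Smim14 (0.778), Cetn3 (0.771), Tnfrsf13c (0.76) and Tmem62 (0.751). Without resting wild-type array 2 these 10 values ran from −0.19 for Tmem62 to 0.63 for Ighv14-2, with 0.41 for Iqsec1 and 0.07 for Rab3d, whereas the 10 genes closest by level kept 0.89 to 0.96. Rab3d, a small GTPase of secretory vesicles, stood in both lists: it read 2.24 to 2.25 on all 12 arrays from culture, 3.85 to 3.97 in resting knockout cells and 4.97, 5.56 and 5.16 in resting wild-type cells. Fcer2a on its own was closest to Camk2d (r = 0.842) and Plbd2 (0.8), a search added after its values were seen.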

How the data were processed

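The RNA of CD4+ T cells went onto 18 Affymetrix arrays, grouped by the labels. The authors deposited a log2 signal for each probe set, computed with GCRMA, per the submitters' processing notes; the version is not given in the sources used here. The sorted values, 1.83 to 15.4, are the same in all 18 columns, which shows quantile normalization.

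The table has 22690 probe sets. Controls (64), those annotated to no gene (1555) and those shared by genes (691) were dropped, which left 12393 genes. Of these, 6873 reached log2 4 on at least 3 arrays and entered a limma fit (version 3.58.1, R 4.3.3) of group means across all arrays. Its tests were two-sided, on 12 residual plus 2.22 prior degrees of freedom, and p-values were adjusted by Benjamini-Hochberg within each of 10 comparisons, passing under 0.05. A fold against a group wholly under log2 4 is given as "at least". The study's design text calls the arrays of a group biological replicates without naming mice or cultures, and p-values measure the spread between these samples.

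The members and lists were chosen with earlier results of these data known. Named genes were the members, Esrra, list genes of smallest adjusted p or of stated level, and the closest genes by correlation; Cd24a, Cd37, Fcrl1, Syk, Jchain, Cd83, Igha and Ighm were also named after their values were seen.

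Titles number the arrays 1 to 3 without naming a common day or mouse. Pairing by number was checked on deviations from group means. All 3 correlations passed 0.1 between stimulated and resting knockout arrays (0.34, 0.27, 0.24), between the genotypes in the resting state (0.64, 0.41, 0.25) and when stimulated (0.44, 0.38, 0.15), and between stimulated wild-type arrays and those with XCT790 (0.25, 0.15, 0.17) or compound A (0.47, 0.40, 0.29).

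Alternatives were to test every gene, to raise the filter to log2 6, to set lower levels to log2 4, to align array medians, to average a gene's probe sets, to block on the array number, to fit only the groups compared, to let the prior follow expression robustly, to weight arrays, to keep arrays 2 and 3, and to leave out each array. In data simulated for wild-type stimulation on 6873 genes, the fit found 62% of 1.5-fold, 84% of 2-fold, 90% of 4-fold and 100% of 8-fold changes, with 11 false among 179 calls. The measured comparison had far more calls, 2542 up and 2638 down, so the simulated rates need not hold for it. Promoters are RefSeq's for GRCm38.p6. Plots used Python 3.11.15 with matplotlib 3.10.9.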

Additional observations from a re-analysis of the deposited data

Results flagged for a closer look

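The CD20 gene Ms4a1 differed between the inhibitors under the same dose and time: it was −1.28 on the log2 scale with XCT790 relative to compound A, with limma's adjusted p = 0.00111 for the difference itself. Its levels were 8.12, 8.66 and 8.78 with XCT790, against 10.31, 9.31 and 9.80 with compound A, lower on 3 of 3 arrays. For the other 5 tested members this difference did not pass. Of all tested genes, 27.8% were lower and 24.8% higher with XCT790 than with compound A, so the share of members lies below the background. Most T cell identity genes and the beta-actin control were also lower with XCT790. So were the B cell surface genes Tnfrsf13b, Cd40 and Cd37, while Cd83 was higher. The part of all these genes in the Ms4a1 level was not tested.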

How the results depend on the processing

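The falls of Cd79a, Cd79b, Ms4a1, Cd22 and Blk with stimulation in wild-type and in knockout cells, and in both inhibitor groups against resting cells, kept their direction and passed under every alternative run for them. The count of members passing between resting knockout and resting wild-type cells, 3, became 0 when only those arrays were fitted, where the number of passing genes over all tested was 176 in place of 1308, and 2379 with array weights; leaving out 1 array gave 2 to 4 members and 612 to 1489 genes. For stimulated knockout against wild-type cells the count of 0 became 2 with array weights and 1 with arrays 2 and 3 alone, and was 0 to 1 with 1 array left out; over all tested genes the count of 150 became 1639 with array weights, 432 with arrays 2 and 3 alone and 253 with the mean of all probe sets, and was 66 to 253 with 1 array left out. The interaction, with 0, had 1 member (Blk) with the replicate block (adjusted p = 0.0434), with a trended prior (0.0497) and with array weights (0.0335), and 0 to 1 with 1 array left out. Over all tested genes its count of 62 became 39 with the floor at log2 6, 123 with the replicate block, 38 on the compared groups alone, 1222 with array weights and 574 with arrays 2 and 3 alone, and was 22 to 141 with 1 array left out. Wild-type stimulated and resting arrays showed no pairing by number (0.13, −0.01 and 0.02). For XCT790 against stimulated wild-type cells the count of 1 became 3 on the compared groups alone, with array weights and with arrays 2 and 3 alone, and 1 to 2 with 1 array left out. For compound A the count of 0 became 1 with array weights and was 0 to 1 with 1 array left out; for XCT790 against compound A the count of 1 became 3 with array weights and with arrays 2 and 3 alone, and 1 to 2 with 1 array left out. The replicate block also took Fcer2a past the threshold for stimulation in wild-type cells (0.038), in knockout cells (0.0239) and for compound A against resting cells (0.0238), and changed no other call.

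Over all genes, knockout stimulation had 8197 passing genes with no filter in place of 5042, and compound A against stimulated wild-type cells 4048 with array weights in place of 2283. The array weights did not reach their convergence tolerance. Signs turned in differences that did not pass. With levels under log2 4 set to it, Cd79a became 0.00 between stimulated genotypes, and Cd22 became −0.00 for compound A against stimulated cells and 0.00 between the inhibitors. With array weights the interaction of Ms4a1 became −0.05 and that of Fcer2a −0.47, and Cd79b became −0.05 for compound A against stimulated cells. The interaction of Fcer2a was −0.29 with the mean of all probe sets and −0.43 with arrays 2 and 3 alone, and its compound A difference from stimulated cells −0.15 with the mean of all probe sets. With 1 array left out, the ranges that crossed 0 were, at rest between genotypes, −1.21 to 0.14 for Cd22, and after stimulation −0.20 to 0.01 for Blk. For the interaction they were −0.86 to 0.18 for Cd79b, −0.26 to 1.10 for Cd22 and −0.88 to 0.97 for Fcer2a. For compound A against stimulated cells they were −0.13 to 0.29 for Cd79b, −0.05 to 0.06 for Cd22 and −0.85 to 1.19 for Fcer2a, and for XCT790 against resting cells −0.06 to 1.24 for Fcer2a. Where no construction of the alternative shows it, the cause was not tested. Levels under log2 4, as for Pax5, Ebf1, most of Cr2, Cd22 in culture, and Cd79a in culture except on compound A array 3, bear no order.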
